A study of Mus musculus with 24 samples.

Results

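Inh-CGE is the label under which the interneurons of the caudal ganglionic eminence were collected in single-nucleus RNA sequencing (snRNA-seq) and single-nucleus ATAC sequencing (snATAC-seq) of the mouse ventral hippocampus. Its members were taken by that name from the deposited tables, which hold counts summed over the nuclei of a label in each library. They were 4 of 68 columns and 975 of 30880 nuclei in snRNA-seq, and 4 of 60 columns and 952 of 27206 nuclei in snATAC-seq. The tissue came from adult male C57BL/6J (B6) and DBA/2J (D2, labelled DBA) mice, to which the labels give no treatment. Each strain had 2 libraries of either kind. A library combined tissue from about 2 animals aged 10 to 16 weeks, and the RNA was that of isolated nuclei. For snRNA-seq a set ratio of nuclei with and without the neuronal protein NeuN had been sorted, while for snATAC-seq nuclei had been sorted on a DNA stain alone. Values below are counts scaled to a common total in every label and library (CPM, the usual scaling of count tables), and the levels of other labels are pooled over libraries unless a mean is named.

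Cortical and hippocampal interneurons are inhibitory neurons that release GABA and arise in the ventral forebrain of the embryo. Those from the medial ganglionic eminence depend on the transcription factors Nkx2-1, Lhx6 and Sox6 and give rise to the somatostatin and parvalbumin cells. Those from the caudal eminence carry the ionotropic serotonin receptor Htr3a and include the cells that make vasoactive intestinal peptide (VIP), many of which contact other interneurons, and the basket cells that make cholecystokinin (CCK) and carry the cannabinoid receptor CB1 on their axon terminals.

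The 4 snRNA-seq libraries held 266 and 226 nuclei (B6) and 273 and 210 nuclei (D2), and between 1806953 and 2253504 counts each. The 4 snATAC-seq libraries held 219 and 113 nuclei (B6) and 363 and 257 nuclei (D2). Their totals were 2317568 and 2044488 counts (B6) against 4275951 and 4142897 (D2), so the D2 values rest on more fragments. By the authors' numbers of nuclei, Inh-CGE made up 3.16% of all snRNA-seq nuclei (95% exact binomial interval 2.97 to 3.36%, which covers counting error only) and 3.50% of all snATAC-seq nuclei (3.28 to 3.72%). Among neurons the share was 4.75% in snRNA-seq and 3.57% in snATAC-seq. The NeuN sort sets the ratio of neurons to other cells in snRNA-seq, so shares of all nuclei are not comparable between the assays. By label, neurons were 5960 of 8707 and 5009 of 7858 snRNA-seq nuclei in B6, and 5533 of 8003 and 4026 of 6312 in D2. In snATAC-seq, without a NeuN sort, they were 7284 of 7445 and 4707 of 4810 in B6. The D2 snATAC-seq libraries had 7601 of 7776 and 7040 of 7175. The reason for this gap was not tested. By library, the share of all nuclei was 3.06 and 2.88% in B6 and 3.41 and 3.33% in D2 for snRNA-seq. It was 2.94 and 2.35% in B6 and 4.67 and 3.58% in D2 for snATAC-seq. The D2 libraries stood above the B6 libraries in both assays, but as a share of interneurons the snRNA-seq libraries overlapped (31.2 and 29.9% in B6, 30.7 and 34.6% in D2). No test was made, because 2 libraries against 2 cannot give an exact permutation p below 0.33.

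The markers of the label were high in it. Adarb2, a catalytically inactive relative of the RNA-editing adenosine deaminases, was at 11492 and 12501 CPM in B6 and 12208 and 11657 CPM in D2. The next label, Inh-Lamp5, stood at 1792 CPM and Inh-MGE at a mean of 21.3 CPM. Vip was at 448 and 600.4 CPM in B6 and 419 and 799.7 CPM in D2, and Htr3a at 58.7 and 54.6 CPM in B6 and 60.4 and 47.0 CPM in D2. For these 3 genes every Inh-CGE library stood above all 16 other labels. The enzymes that make GABA, Gad1 and Gad2, had means of 182 and 269.5 CPM. The defining genes of medial interneurons were near 0, with Lhx6 at 0 to 1.07 CPM against a mean of 67.3 CPM in Inh-MGE and with no count of Nkx2-1 in Inh-CGE, though Nkx2-1 was also low in Inh-MGE (0 to 1.05 CPM). The list of 12 medial genes summed to 565 to 738 CPM in Inh-CGE and 4513 to 5871 CPM in Inh-MGE. The 10 excitatory genes summed to 298 to 333 CPM (1688 in Exc-CA1-Galntl6). The 8 oligodendrocyte genes summed to 71.4 to 150 CPM (17388 in NN-ODC), the 8 astrocyte genes to 172 to 223 CPM (11409 in NN-Astro) and the 7 microglial genes to 215 to 271 CPM (8852 in NN-MGC). Of the Cajal-Retzius factors, Lhx1 had no count and Trp73 and Ebf3 had means of 1.24 and 0.402 CPM. Labels had been assigned from clusters of the same snRNA-seq counts, so the comparisons of Inh-CGE with other labels are descriptions and carry no test.

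The genes that led Inh-CGE were those with a mean of at least 20 CPM, a level at least 2-fold that of the highest other label (a log2 ratio of 1 with 1 CPM added) and all 4 libraries above that label. There were 31 of them among 7307 symbols at this level, or 0.424%. In type, 21 were protein coding, 8 were lincRNAs, 1 was antisense and 1 was a processed transcript. The last to enter were Vstm2l, at 42.3 to 62.0 CPM and 2.06-fold above its next label, and Fxyd6, at 84.6 to 148 CPM and 2.04-fold above.

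**Figure D1:**
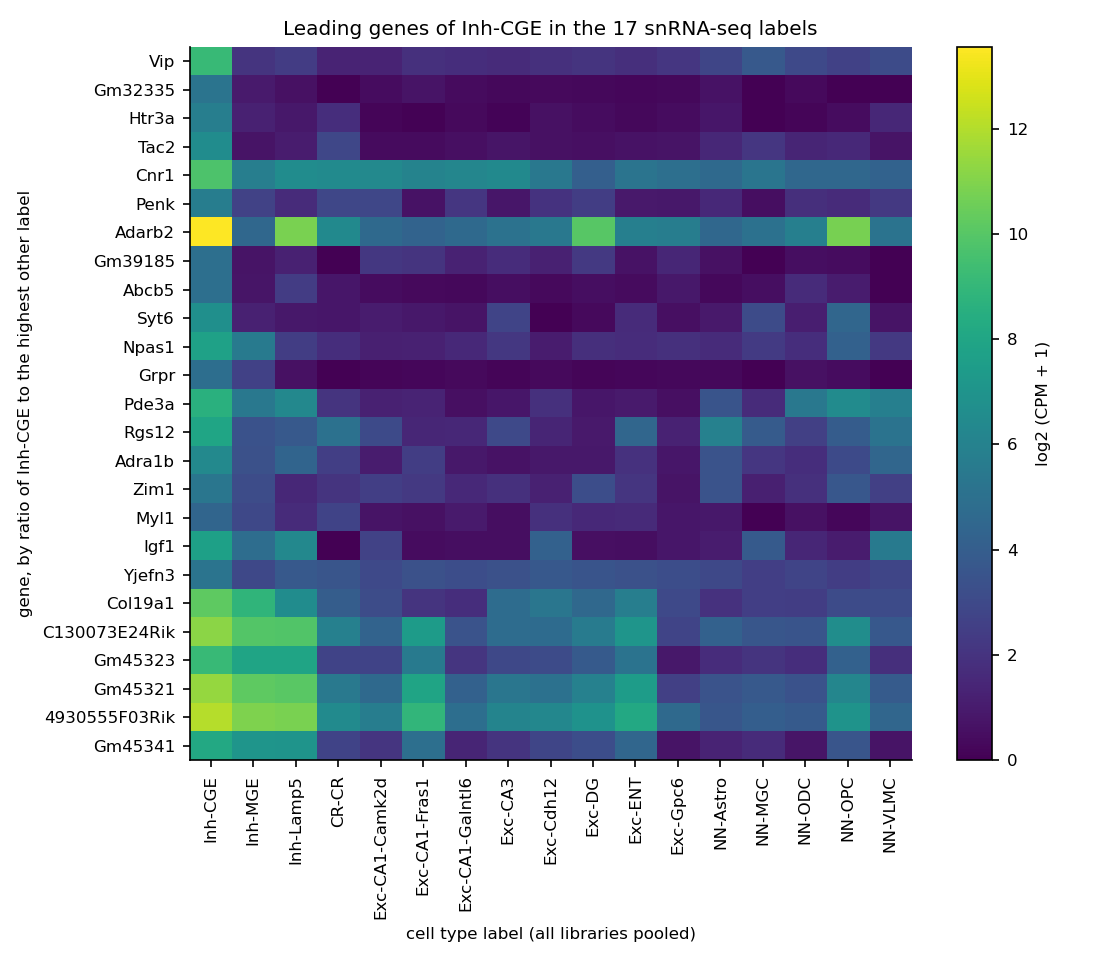
Levels of 25 leading genes of Inh-CGE (rows, ordered by the ratio to the highest other label) in the 17 snRNA-seq labels (columns), as log2 (CPM + 1) of counts pooled over libraries. Vip, Htr3a, Tac2 and Grpr are bright in the Inh-CGE column and dark in most others, while the chromosome 8 transcripts near the bottom are also visible in Inh-MGE and Inh-Lamp5.

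Of the 21 peptide genes listed, 4 were among the leading genes. Vip, first of the 31 by its ratio to the next label and a peptide that acts on G protein-coupled receptors of many tissues, was 44.8-fold above the next label, with a mean of 567 ± 174 CPM (SD, n = 4). Tac2, which encodes neurokinin B, was at 51.7 and 59.4 CPM in B6 and 114 and 148 CPM in D2, 14.8-fold above Cajal-Retzius cells (CR-CR). Penk, the precursor of the enkephalins, was at 62.5 and 63.1 CPM in B6 and 39.1 and 50.4 CPM in D2, 8.50-fold above CR-CR. The growth factor Igf1 was at 179.7 to 231 CPM against 78.0 CPM in Inh-Lamp5. Cck was at 336 and 217 CPM in B6 and 492 and 909.8 CPM in D2 and was the highest of the 17 labels, but the excitatory Exc-Gpc6 cells held 293 CPM, above 1 of the B6 libraries, so it was not a leading gene. Of the 21, 9 reached 20 CPM and 7 were highest in Inh-CGE, a pattern held by 3.15% of 21805 symbols with a count there. By the 2-fold rule given below, 5 were higher than in Inh-MGE and 5 were lower, against 4.14% and 4.2% of all symbols at 20 CPM. Those lower included somatostatin (Sst, 17.2 to 32.3 CPM against a mean of 1349 CPM in Inh-MGE), neuropeptide Y (Npy, 21.9 to 60.3 against 179) and the tachykinin precursor Tac1 (0.444 to 2.15 against 69.2).

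Several receptor genes also led. Cnr1, the CB1 cannabinoid receptor, was at 837 and 653 CPM in B6 and 855 and 1154 CPM in D2, 9.19-fold above Inh-Lamp5, with a mean of 55.5 CPM in Inh-MGE. The enzymes that make and break down endocannabinoids did not share this pattern, since of the 10 genes listed for that signalling Cnr1 alone was highest in Inh-CGE or higher than in Inh-MGE. For instance, the hydrolase Mgll was at 46.3 to 70.3 CPM against 70.2 CPM in Inh-MGE and 411 CPM in astrocytes (NN-Astro), and the synthetic enzyme Dagla was at 11.6 to 22.1 CPM against 41.5 CPM in Inh-MGE. Htr3a was 23.3-fold above CR-CR, and its partner subunit Htr3b had a mean of 1.79 CPM. Among the 14 serotonin receptor genes Htr2c was also highest in Inh-CGE, at 290.0 to 426 CPM, but overlapped Exc-ENT (311 CPM). Receptors for other ligands among the leading genes were Grpr for gastrin-releasing peptide (24.0 to 33.4 CPM, 5.45-fold above Inh-MGE), Adra1b for noradrenaline (63.9 to 103 CPM, 3.94-fold above NN-VLMC) and Hrh2 for histamine (57.3 to 75.3 CPM, 2.16-fold above NN-MGC). The nicotinic subunit Chrna7 was at 129.6 to 156 CPM, and its libraries overlapped the 134 CPM of Inh-Lamp5.

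The remaining protein-coding leading genes had varied roles. Syt6, a synaptotagmin, was at 91.5 to 115 CPM and 4.96-fold above NN-OPC. Pde3a, a cyclic nucleotide phosphodiesterase, was at 319.5 to 455 CPM, and Rgs12, which speeds the turn-off of G proteins, was at 226 to 272 CPM. Col19a1, a collagen, was at 957 to 1331 CPM against 457 CPM in Inh-MGE. Zim1, an imprinted zinc-finger gene, was at 28.4 to 44.8 CPM. Myl1, a myosin light chain best known from muscle, was at 10.8 and 8.56 CPM in B6 and 17.8 and 44.8 CPM in D2, so its mean passed 20 CPM through D2 library 3.

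**Figure D2:**
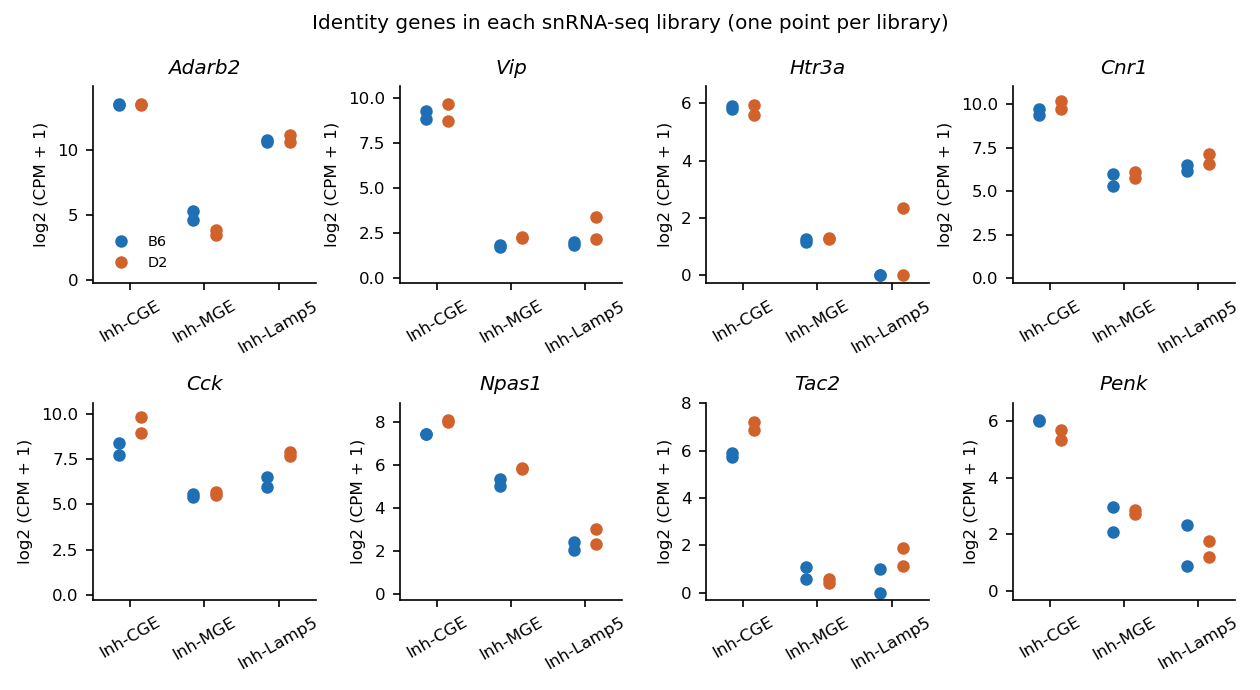
Levels of 8 identity genes in each snRNA-seq library of Inh-CGE, Inh-MGE and Inh-Lamp5, as log2 (CPM + 1) on the y axis, with 1 point per library and the strains in different colours. The Inh-CGE points lie above those of the other 2 labels for every gene but Cck, where 1 D2 Inh-Lamp5 library exceeds the lower B6 library, and D2 lies above B6 in Inh-CGE for Cck, Npas1 and Tac2.

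Among 36 transcription factors of interneurons, 7 were highest in Inh-CGE (3.15% of all symbols), 11 were higher than in Inh-MGE (4.14%) and 9 were lower (4.2%), with a median log2 ratio of 0.59 against -0.05 over all symbols at 20 CPM in either label. Npas1, a basic helix-loop-helix factor, was the sole leading gene in this list, at 172 and 172 CPM in B6 and 254 and 269.5 CPM in D2 against 44.6 CPM in Inh-MGE. Npas3, its relative, was at 3311 to 3393 CPM, and NN-Astro held 3234 CPM. Prox1, a homeobox factor that caudal interneurons need for their maturation, was at 102 and 135 CPM in B6 and 77.7 and 85.8 CPM in D2, below the 278 CPM of dentate granule cells (Exc-DG) and above a mean of 4.58 CPM in Inh-MGE. Sp8 was low, at 6.96 to 14.9 CPM, with 1.88 CPM in the next label, Inh-Lamp5. The nuclear receptors Nr2f2 and Nr2f1 did not lead. Nr2f2 was at 52.8 to 67.3 CPM against a mean of 25.4 in Inh-MGE and 333 in NN-VLMC, and Nr2f1 was at 39.9 to 69.7 CPM against 54.5 in Inh-MGE. Lower than in Inh-MGE were Lhx6, Sox6 (5.35 to 12.7 against a mean of 369 CPM), Satb1 (37.1 to 51.7 against 225) and Tox (4.28 to 6.64 against 83.3). Of the Dlx factors, shared by forebrain interneurons, Dlx1, Dlx2, Dlx5 and Dlx6 were each highest in Inh-CGE (Dlx1 at 64.3 to 76.5 CPM, with a mean of 32.3 in Inh-MGE).

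The promoters of 4 leading genes are shown because their peaks are described below, together with the centre of a peak inside Adarb2 that was also foremost in Inh-CGE. Promoter letters are the 250 bases before and 50 after a transcript start, 5′ to 3′ along the gene, from RefSeq on GRCm38.p6 (mm10), and the 300 bases of the peak centre were read from GRCm38 on the plus strand. Of the 31 leading genes, 22 had an entry among the RefSeq promoters. Capitals mark TGACGTC, the core of the cyclic AMP response element, in Vip, the homeodomain letters TAATTA in Adarb2 and the E-box CACGTG in Cnr1. These motifs were searched on both strands, and they were chosen, like the stretches printed, after values had been seen. TGACGTC occurred in 3.22%, TAATTA in 5.29% and CACGTG in 7.17% of 32544 promoters, and a match is only a description of the letters.
Vip promoter, chr10:5638968-5639267, plus strand: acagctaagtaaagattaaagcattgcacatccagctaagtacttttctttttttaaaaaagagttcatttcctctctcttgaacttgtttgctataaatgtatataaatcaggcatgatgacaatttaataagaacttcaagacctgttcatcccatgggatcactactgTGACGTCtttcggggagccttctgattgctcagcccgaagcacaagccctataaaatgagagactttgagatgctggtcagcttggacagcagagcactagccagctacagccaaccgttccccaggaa
Adarb2 promoter, chr13:8202616-8202915, plus strand: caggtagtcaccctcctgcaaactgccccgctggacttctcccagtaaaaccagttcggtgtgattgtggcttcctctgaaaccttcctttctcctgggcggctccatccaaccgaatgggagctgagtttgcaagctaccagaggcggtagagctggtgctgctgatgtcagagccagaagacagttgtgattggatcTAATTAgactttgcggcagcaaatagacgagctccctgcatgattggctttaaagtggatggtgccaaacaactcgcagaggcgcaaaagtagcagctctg
Cnr1 promoter, chr4:33924394-33924693, plus strand: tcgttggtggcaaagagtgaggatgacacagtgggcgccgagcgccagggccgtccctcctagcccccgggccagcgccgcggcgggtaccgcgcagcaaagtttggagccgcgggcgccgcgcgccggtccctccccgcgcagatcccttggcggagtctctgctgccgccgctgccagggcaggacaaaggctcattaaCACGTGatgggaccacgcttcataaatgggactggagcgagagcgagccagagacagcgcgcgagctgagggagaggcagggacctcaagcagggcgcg
Npas1 promoter, chr7:16476731-16477030, minus strand: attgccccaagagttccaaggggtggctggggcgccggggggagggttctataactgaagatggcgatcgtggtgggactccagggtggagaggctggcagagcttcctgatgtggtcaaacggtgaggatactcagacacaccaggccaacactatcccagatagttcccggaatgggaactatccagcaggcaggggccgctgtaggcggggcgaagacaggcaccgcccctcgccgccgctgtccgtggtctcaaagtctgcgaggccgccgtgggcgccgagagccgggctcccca
Adarb2 intron peak centre, chr13:8584430-8584729, plus strand: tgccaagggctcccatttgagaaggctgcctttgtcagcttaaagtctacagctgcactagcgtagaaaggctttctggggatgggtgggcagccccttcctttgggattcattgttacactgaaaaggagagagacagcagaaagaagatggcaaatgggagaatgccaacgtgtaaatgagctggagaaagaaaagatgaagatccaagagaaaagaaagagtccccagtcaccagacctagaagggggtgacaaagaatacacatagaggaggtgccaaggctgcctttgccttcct

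A run of noncoding transcripts on chromosome 8 was shared with the other interneurons at a lower level. Between positions 48843665 and 50916997 of chromosome 8 (mm10, 2.07 Mb) lay 7 of the 31 leading genes, among 18 annotated symbols of which 11 reached 20 CPM. They were Gm19744, 4930555F03Rik, Gm45321, Gm45323, Gm45341, Gm2516 and C130073E24Rik. 4930555F03Rik was at 4263 and 5246 CPM in B6 and 3858 and 3263 CPM in D2, against a mean of 1912 CPM in Inh-MGE. C130073E24Rik, at the far end, was at 2233 to 2479 CPM against 984 CPM. Over the 7, the fold above Inh-MGE was 2.13 to 2.36 and that above Inh-Lamp5 2.17 to 2.53. The 2-fold rule that chose these genes sets the lower end of such ranges. The highest excitatory label, Exc-CA1-Fras1 for each of them, was exceeded 6.65 to 13.6-fold. The teneurin gene Tenm3, whose start lies beside Gm19744 on the opposite strand, did not share the pattern (1643 to 1784 CPM, 1380.0 to 1688 CPM in Inh-MGE). Among the 7, Gm45341 and Gm2516 overlap on opposite strands, so reads may have passed between them.

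A pair of neighbours lay on chromosome 9. Gm32335 (chr9:48896451-48905982, plus strand) is annotated antisense to Htr3a (chr9:48899213-48911099, minus strand). It was at 29.1 and 33.2 CPM in B6 and 43.5 and 37.1 CPM in D2, 36.9-fold above Inh-MGE. Because the genes overlap, part of the reads of each may have been given to the other. Gm39185, a lincRNA on chromosome 8 outside the run, was at 54.4 and 53.5 CPM in B6 and 9.32 and 4.43 CPM in D2, so the strains did not overlap. Its mean passed 20 CPM through the B6 libraries.

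The nearest large label was Inh-MGE, with 1637 snRNA-seq nuclei. Of 7834 symbols at 20 CPM in either label, 324 (4.14%) were at least 2-fold higher in Inh-CGE and 329 (4.2%) at least 2-fold lower, with no overlap between the 4 libraries of each label. Adarb2 (562-fold), Vip (184-fold) and Tac2 (151-fold) differed most upwards by the log2 ratio with 1 CPM added, followed by Syt6 (70.7-fold) and Cadps2, a factor of dense-core vesicle release (693 and 725 CPM in B6 and 900.4 and 897 CPM in D2, 35.8-fold). Ntng1, a netrin-related adhesion protein, was at 1017 to 1295 CPM and 26.7-fold higher, and Ndnf was at 93.1 to 129 CPM and 26.8-fold higher. Ndnf is otherwise a marker of neurogliaform cells, and Inh-Lamp5 held a mean of 157 CPM of it. Downwards, Sst was 60.3-fold, Slit2 45.9-fold and Sox6 44.0-fold lower as ratios of means. Slit2, a repellent axon guidance cue, was at 3.87 to 8.08 CPM in Inh-CGE and at 228 to 355 CPM in Inh-MGE. The G protein subunit Gna14, at 0 to 0.535 CPM in Inh-CGE and 27.9 to 60.0 CPM in Inh-MGE, and the synaptic ligand Nxph2, at 0 to 1.08 against 46.4 to 57.9 CPM, had almost no counts in Inh-CGE.

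**Figure D3:**
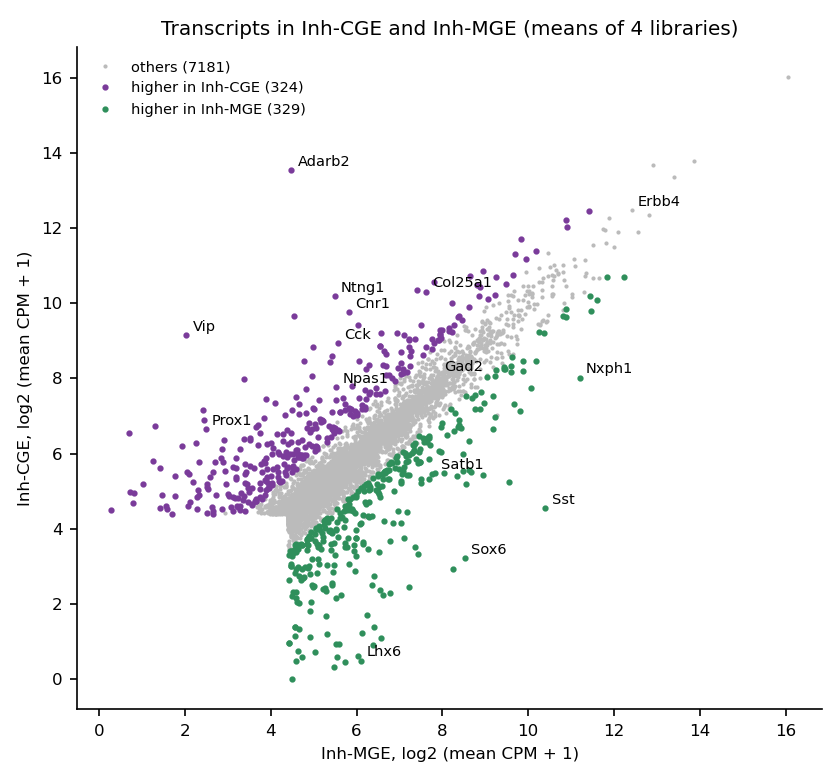
Mean level of each transcript in Inh-CGE (y axis) against Inh-MGE (x axis), both as log2 (CPM + 1) over 4 libraries, for symbols at 20 CPM or more in either label. The 324 transcripts higher in Inh-CGE include Adarb2, Vip, Cnr1 and Cck, and the 329 lower ones include Sst, Lhx6 and Sox6.

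The gene groups behaved unevenly. For comparison, 3.15% of symbols with a count in Inh-CGE were highest there of all labels. Of symbols at 20 CPM in either label, 4.14% were higher and 4.2% lower than in Inh-MGE by the 2-fold rule. Of 15 genes of the caudal lineage, 8 were highest in Inh-CGE of all labels, 11 were higher than in Inh-MGE and 1 was lower (Sp9, 5.89 to 8.62 against a mean of 21.1 CPM), with a median log2 ratio of 3.38. Of 12 genes of medial interneurons, 8 were lower and none was higher. The lists of VIP cells and CCK basket cells share several of the leading genes, and both had 9 members highest in Inh-CGE, of 10 and 12. Of 12 genes of Lamp5 neurogliaform cells none was highest, and Lamp5 itself was at 9.32 to 18.9 CPM against 249.7 CPM in Inh-Lamp5. Among 24 glutamate receptor genes none was higher and 5 were lower than in Inh-MGE. Those 5 included the AMPA receptor subunits Gria1 (969.6 to 1229.6 against a mean of 3096 CPM) and Gria3 (131 to 147 against 891), as well as the metabotropic receptor Grm5 (744 to 1080.5 against 2815). Among 30 potassium channel genes 7 were higher and 3 lower, with Kcnq5 at 1481 to 1543 against 222 CPM and Kcnt2 at 306 to 572 against 99.1. Of 32 synaptic adhesion genes 2 were higher and 6 lower, and of those lower Il1rapl2 was at 18.6 to 67.9 against 749 CPM.

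Many of the leading genes also had a more accessible promoter in Inh-CGE. A promoter peak was a deposited peak within 1000 bases of an annotated transcript start, at a mean of at least 10 CPM of snATAC-seq counts. Of the 31 leading genes, 21 had one. In 10 of these 21 the peak was highest in Inh-CGE of the 15 snATAC-seq labels, where 3.71% of 10443 transcripts with such a peak had this pattern. In 15 of 21 every Inh-CGE library stood above every Inh-MGE library, against 5.63% of the 10443. The median log2 ratio of Inh-CGE to Inh-MGE was 0.49 over the 21 genes and 0.001 over the 10443. The snATAC-seq labels had been transferred through accessibility over genes, so these figures are descriptions too.

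Npas1 was the single leading gene with a promoter peak at least 2-fold above every other label. It was at 35.4 and 26.9 CPM in B6 and 31.1 and 30.4 CPM in D2, and at a mean of 12.6 CPM in Inh-MGE, over part of the promoter letters printed above. The Adarb2 promoter was at 30.2 to 37.2 CPM and Inh-MGE at 13.5 CPM, but Inh-Lamp5 stood at 30.5 CPM, within the range of the Inh-CGE libraries. The Cnr1 promoter was at 47.9 to 63.9 CPM, with 30.2 CPM in Inh-MGE and 40.8 CPM in Inh-Lamp5. The promoter of Gm32335, beside Htr3a, was at 39.6 to 46.6 CPM, with 11.004 CPM in Inh-MGE and 27.5 CPM in Inh-Lamp5. At Htr3a itself the peak was at 8.20 to 18.1 CPM, below the 19.2 CPM of Exc-Gpc6. For Vip a short peak lay over the start, at 3.88 and 3.91 CPM in B6 and 4.68 and 2.41 CPM in D2 and 0.260 CPM in Inh-MGE, below the 10 CPM minimum. Promoters of Yjefn3, Col19a1, Gm19744 and 9330158H04Rik had lower means than in Inh-MGE although their transcripts led in Inh-CGE. Of these peaks, that of Yjefn3 also overlaps Ndufa13 and Tssk6, that of Gm19744 Tenm3, and that of 9330158H04Rik Chrm2. Those of Penk, Pde3a and Igf1 overlap a further gene too. The accessibility of such shared peaks cannot be credited to a single gene.

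**Figure D4:**
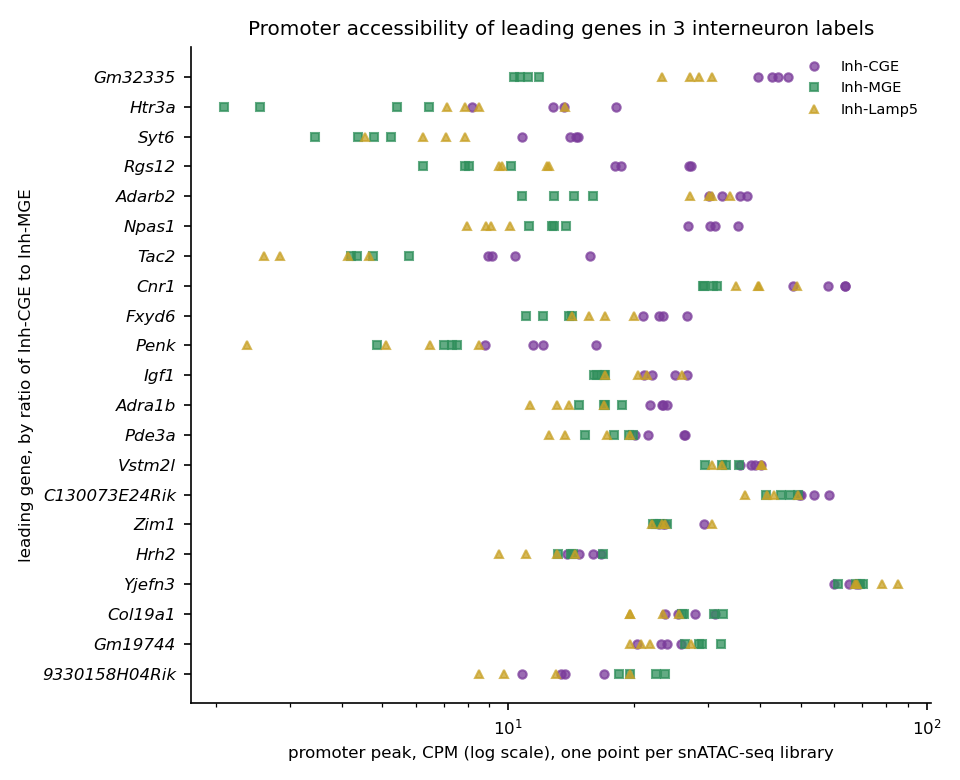
CPM of the promoter peak of the 21 leading genes with a peak (rows, ordered by the ratio of Inh-CGE to Inh-MGE) in each snATAC-seq library of Inh-CGE, Inh-MGE and Inh-Lamp5, on a logarithmic x axis. The Inh-CGE points clear the Inh-MGE points at Gm32335, Htr3a, Syt6, Rgs12, Adarb2 and Npas1 but mix with them at Yjefn3 and Col19a1.

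Over all peaks, 97 of 19457 at 10 CPM or more (0.499%) led Inh-CGE by the rule used for transcripts. Of the 97, 55 lay between genes, 34 in introns and 8 over an exon, and 5 were within 1 kb of a transcript start. There were 6 in or within 50 kb of a leading gene, including the Npas1 promoter. The peak in an intron of Adarb2 (chr13:8584170-8584989), whose centre is printed above, was at 15.1 and 10.8 CPM in B6 and 9.35 and 10.1 CPM in D2, with 1.40 CPM in Inh-MGE and 2.62 CPM in Inh-Lamp5. The rule for leading peaks required it to stand above Inh-Lamp5, so its contrast with the Adarb2 promoter follows from how it was chosen. A peak downstream of Cnr1 (chr4:33950717-33952633) was at 10.8 to 15.4 CPM, with 1.67 CPM in Inh-MGE, and a peak over an exon of Cnr1 (chr4:33943736-33944829) was at 7.25 to 15.5 CPM, with 2.03 CPM. A peak upstream of Rgs12 (chr5:34930373-34932263) was at 22.0 and 20.1 CPM in B6 and 35.3 and 31.9 CPM in D2, with 5.96 CPM in Inh-MGE, and was the single leading peak called between the strains (edgeR, adjusted p = 0.048). A peak upstream of Syt6 (chr3:103535087-103535487) was at 8.63 to 13.2 CPM, with 2.96 CPM in Inh-MGE.

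The homeodomain letters TAATTA occurred in the 300 central bases of 19 of 95 leading peaks with sequence read (20%). The share was 9.16% over 6367 peaks at 10 CPM more than 1 kb from a start and 15.6% over 391 peaks led by Inh-MGE in the same way. The AP-1 letters TGANTCA were in 9.47% of the Inh-CGE peaks, 11.1% of the distal peaks and 26.1% of the Inh-MGE peaks. Mean GC content was 47.0% in the leading peaks, 50.7% in the distal peaks and 45.1% in the Inh-MGE peaks, and its part in these shares was not tested.

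Between the strains, the 3 marker genes gave no call (edgeR quasi-likelihood test, D2 over B6). The log2 fold change was -0.02 ± 0.11 (SE) for Adarb2 (adjusted p = 0.94), 0.19 ± 0.20 for Vip (0.64) and -0.08 ± 0.17 for Htr3a (0.85). For Cnr1 it was 0.41 ± 0.14 (0.078). Of 12015 transcripts tested, 987 (8.21%) passed an adjusted p of 0.05, 394 higher in D2 (3.28%) and 593 lower (4.94%), and the median log2 fold change was 0.01. Of the 31 leading genes 4 were higher in D2 and 4 lower, with a median of 0.03. Yjefn3 and Myl1 reached the mean of 20 CPM through D2 (Yjefn3 had a mean of 15.3 CPM in B6), and Gm39185 through B6. For these genes the place among the leading genes is not independent of the strain difference. Summed counts cannot tell less RNA per nucleus from fewer nuclei of the label that express a gene. The number of edgeR calls depended strongly on which library was left out. In such a fit the spread is estimated from the 2 libraries of the other strain alone. These fits therefore cannot tell which libraries the calls rest on. DESeq2 made 395 calls on all 4 libraries.

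**Figure D5:**
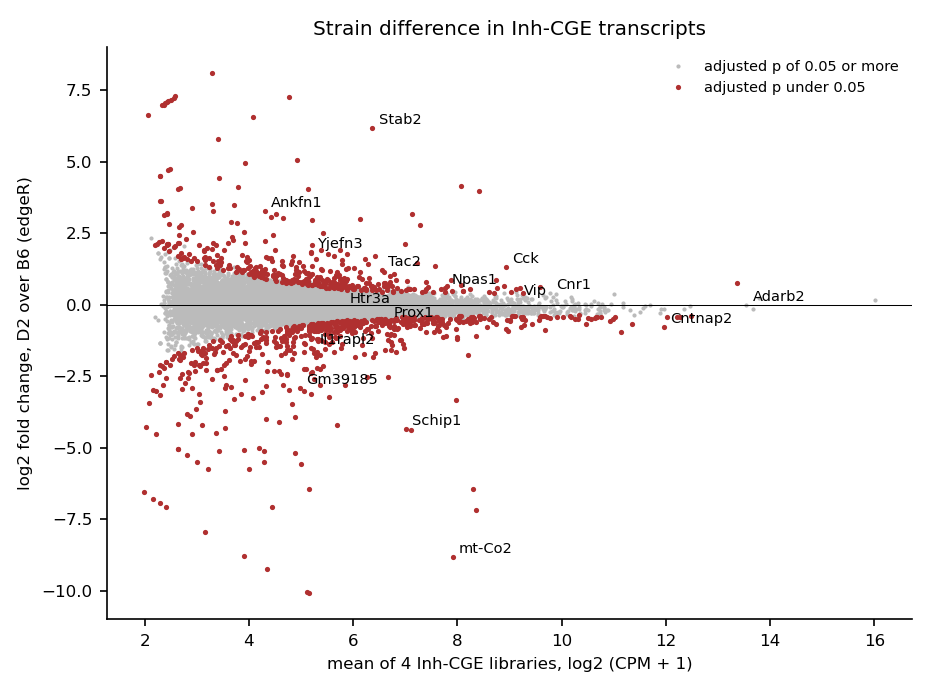
Strain difference of Inh-CGE transcripts, with the mean level of the 4 libraries as log2 (CPM + 1) on the x axis and the log2 fold change of D2 over B6 (edgeR) on the y axis. Red points, 987 of 12015, passed an adjusted p of 0.05, with 394 above 0 and 593 below it.

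The peptide transcripts Tac2 and Cck were among those higher in D2. Tac2 rose 2.32-fold (log2 1.21 ± 0.16, adjusted p = 3.0e-05), with 51.7 and 59.4 against 114 and 148 CPM and no overlap. Cck was 2.49-fold higher (1.32 ± 0.21, 0.00031), at 336 and 217 against 492 and 909.8 CPM, though with DESeq2 its adjusted p was 0.186. Penk lay the other way without passing (-0.52 ± 0.17, 0.071). Of the 11 peptide genes tested Tac2 and Cck were the 2 calls, where 3.28% of all tested transcripts were higher and 4.94% lower in D2. Npas1 was 1.51-fold higher in D2 (0.59 ± 0.12, 0.0034), while the log2 fold change of its promoter peak was 0.01 ± 0.17 and did not pass. Yjefn3, a relative of the metabolite-repair enzyme Naxe, was 3.54-fold higher, at 17.2 and 13.4 against 43.9 and 67.5 CPM, and Myl1 was 3.09-fold higher. Lower in D2 were Gm39185 (7.60-fold), Pde3a (1.41-fold), and, in the run on chromosome 8, 4930555F03Rik (1.35-fold) and Gm19744 (1.54-fold).

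Of the 15 genes of the caudal lineage, 4 were called, with Npas1, Cck and Nr2f1 (39.9 and 46.0 against 59.5 and 69.7 CPM) higher in D2 and Prox1 (102 and 135 against 77.7 and 85.8 CPM) lower. The adjusted p of Nr2f1 and Prox1 was 0.047 and 0.027, and neither passed with DESeq2 (0.429 and 0.213). Against 3.28% of all tested transcripts higher and 4.94% lower in D2, of 32 synaptic adhesion genes 6 were lower and none higher, with a list median of -0.20 against 0.01 over all tested transcripts. Cntnap2, a neurexin-like protein, was at 4914 and 5144 CPM in B6 and 3028 and 2874 CPM in D2 (1.72-fold lower, adjusted p = 7.8e-05). Il1rapl2 was at 67.9 and 41.2 against 18.6 and 19.4 CPM, 2.90-fold lower. Of 22 glutamate receptor genes tested, 4 were lower, among them the metabotropic Grm5 (1.38-fold), Grm7 (1.45-fold) and Grm8 (1.48-fold). The GABA-A subunit Gabrg3 was at 862 and 827 against 548 and 526 CPM (1.59-fold lower). Of 18 calcium channel genes 1, Cacna2d1, was lower, and it was not called with DESeq2 (adjusted p = 0.169). Of 30 potassium channel genes, Kcnc2, Kcnip4 and Kcnt2 were lower and Kcnc1 was higher (156 and 117 against 188 and 201 CPM). Erbb4, the neuregulin receptor of interneurons, was 1.33-fold lower, and the transcription factor Meis2 2.53-fold lower. With DESeq2 the calls of 4930555F03Rik, Kcnip4, Kcnc1, Nlgn3 and Il1rapl1 were lost as well. Without B6 library 3, those of Pde3a, Cntn5, Grm7, Grm8 and Erbb4 were lost, along with Nr2f1, Prox1, Kcnc1, Cacna2d1, 4930555F03Rik, Nlgn3 and Il1rapl1, and without B6 library 2 that of Grm5 was lost.

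Some markers of other cells also differed between strains. For comparison, 3.28% of all tested transcripts were higher and 4.94% lower in D2. Of 7 oligodendrocyte genes tested 3 were lower in D2, among them Mbp and Mobp, whose calls were lost with DESeq2 (adjusted p = 0.256 and 0.124), and the summed level of the list was 133 to 150 CPM in B6 and 71.4 to 90.8 CPM in D2. The microglial list had 1 call of 3 tested, lower in D2, and sums of 259 to 271 CPM in B6 and 215 to 238 CPM in D2. None of 4 astrocyte genes tested was called, and the sums over all 8 listed were 219 to 223 CPM in B6 and 172 to 175 CPM in D2. The part of these sums in the strain differences was not tested.

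The steepest strain differences lay elsewhere. At a mean of 20 CPM or more, Gm12160, Stab2, Gm20324, Atp5o, Gm49980, Rnf121, Sv2c, Pisd, Rap1gapos and Zfp951 rose most in D2. Stab2, a scavenger receptor of endothelial cells, was at 2.69 and 1.61 CPM in B6 and 142 and 179.9 CPM in D2. Atp5o, a subunit of ATP synthase, was at 26.9 and 29.97 against 542 and 476 CPM (17.7-fold). Sv2c, a synaptic vesicle protein, was at 4.85 and 3.75 against 42.6 and 36.5 CPM (9.04-fold). The 10 that fell most were mt-Nd3, Pram1, mt-Co2, mt-Co3, mt-Nd4l, mt-Atp6, Rnasek, Rhbdl1, 1700026F02Rik and Cox16. mt-Co2, a mitochondrial subunit of cytochrome oxidase, was at 369 and 586 CPM in B6 and 0.444 and 1.66 CPM in D2. mt-Nd3 and Pram1 had no count in D2, which makes them at least 94.1-fold and 91.2-fold lower against a floor of 3 counts over both D2 libraries. Of 13 mitochondrial symbols tested, 8 were lower in D2 and none was higher, and they summed to 2695 and 4327 CPM in B6 and 1004 and 679.6 CPM in D2. The other 24 mitochondrial symbols had no count in B6 Inh-CGE libraries, among them mt-Rnr1 and mt-Rnr2, a pair of ribosomal RNAs at 1246 and 889 and 3219 and 2555 CPM in D2. Over all 37 mitochondrial symbols the sums were 2695 and 4327 CPM in B6 and 5520 and 4143 CPM in D2, so the total was not lower in D2. Inh-MGE held like values for Rnf121 (40.9 and 39.6 against 720.2 and 564 CPM in Inh-CGE, 42.5 and 41.4 against 816 and 751 CPM in Inh-MGE) and for Stab2 (4.25 and 2.495 against 139.9 and 189 CPM).

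The strains had been counted against different references, mm10 for B6 and mm10 with D2 variants inserted for D2. Of 33902 symbols, 24691 were counted in both strains, 960 in B6 only and 8204 in D2 only. Symbols counted in a single strain took 2.46% of Inh-CGE counts and were not tested. Transcripts overlapped on the same strand by another counted gene were called in 13.3% of 1961 cases, and those with no such neighbour in 7.01% of 9906. These groups do not cover all 12015 transcripts tested. For a single transcript, strain and gene annotation cannot be told apart here. Sv2c, Pisd, Pram1, mt-Co3, mt-Nd4l, mt-Atp6, Rnasek, Rhbdl1 and Cox16 each overlap another gene on their own strand. Atp5o and Gm49980 had no single entry in the annotation, so their overlap was not assessed.

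Strain differences in accessibility were tested peak by peak. Of 184454 peaks, 503 (0.273%) passed, 238 higher (0.129%) and 265 lower (0.144%) in D2, and of those called 91 had no count in D2 and 44 none in B6. Among peaks at 20 CPM or more, 2 of the 3 that rose most lay at Sfi1 on chromosome 11. The peak at its start (chr11:3192223-3193882) was at 35.4 and 33.3 CPM in B6 and 359.9 and 334 CPM in D2 (10.3-fold), and the Sfi1 transcript was also higher in D2 (log2 2.77). The third lay in an intron of Pisd-ps2 (chr17:3081281-3083312), at 14.7 and 11.2 against 96.4 and 78.7 CPM. The peak that fell most (chr6:3200811-3201594, between genes) was at 61.7 and 51.8 CPM in B6 with no count in D2. Next came a peak in an intron of B230311B06Rik (chr7:118593048-118594623), at 33.7 and 29.3 against 10.1 and 7.97 CPM, and 1 between genes (chr1:171044097-171045401), at 41.9 and 47.9 against 15.2 and 16.9 CPM. All 6 of these peaks had values in Inh-MGE and Inh-Lamp5 that separated the strains in the same direction.

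Few promoter peaks were called. Among 10443 tested transcripts with a promoter peak, 25 peaks were called (0.239%), and among the 696 called transcripts with such a peak, 13 peaks were called (1.87%). In 11 the directions were the same, as at Alad (24.2 and 24.9 against 73.4 and 68.3 CPM of the peak), a haem-synthesis enzyme, and at Fggy (24.6 and 22.5 against 2.57 and 1.93 CPM), a carbohydrate kinase. In the other 2, Btbd9 and Etnk2, the peak was higher and the transcript lower in D2. The called peaks of Alad and Hdhd3 lie close together on chromosome 4, and those of Btbd9 and Glo1 on chromosome 17, so these genes are not separate places. The Alad peak also separated the strains in Inh-MGE (23.3 and 26.2 against 71.0 and 67.3 CPM). Peak counts were not adjusted for the number of copies of a region in a strain, and its part was not tested. None of the promoter peaks of the 21 leading genes was called. In simulated libraries of this depth a 2-fold peak difference was recovered in 23% and a 4-fold one in 76% of cases. For transcripts these shares were 69% and 96%. Changes were simulated only in features with at least 40 counts, at the same dispersion for all, whereas peaks were tested from 10 counts. Recovery over all tested peaks was therefore not measured, and smaller differences in accessibility could go undetected.

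Whether a strain difference was of another size in Inh-CGE than in the other interneurons was tested as an interaction, with the library as a block. Against Inh-MGE, 36 of 13617 transcripts (0.264%) passed, 20 with the D2 over B6 ratio higher in Inh-CGE (0.147%) and 16 with it lower (0.118%). Against Inh-Lamp5, 72 of 12149 (0.593%) passed, 44 higher (0.362%) and 28 lower (0.23%). Both labels of a library were counted against the same reference, and the part of annotation in these interactions was not tested.

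Ankfn1 was at 4.85 and 2.14 CPM in B6 and 43.5 and 24.9 CPM in D2 in Inh-CGE, while Inh-MGE had 21.8 and 11.7 against 18.4 and 11.2 CPM (interaction 3.45 ± 0.38 on the log2 scale, edgeR adjusted p = 4.8e-05). Schip1, an axon initial segment protein, was lower in D2 in both, at 239 and 251 against 12.4 and 11.6 CPM in Inh-CGE and 1229 and 1200.4 against 11.5 and 14.7 CPM in Inh-MGE, and less so in Inh-CGE (2.21 ± 0.28, 0.00016). Inh-Lamp5 held 113 and 94.5 against 13.1 and 13.4 CPM, so the D2 level was near that of the other labels. Angpt1, a ligand of an endothelial receptor, was lower in D2 Inh-CGE (30.2 and 44.4 against 19.1 and 22.7 CPM) and higher in D2 Inh-MGE (4.25 and 10.2 against 22.8 and 24.9 CPM), with an interaction of -2.55 ± 0.30 (0.0001). Cck differed between strains in Inh-CGE and was at 42.2 to 51.2 CPM in Inh-MGE (1.16 ± 0.19, 0.0031), though its interaction did not pass with DESeq2. Inh-Lamp5 showed a strain difference of Cck too, at 91.2 and 60.7 against 206 and 235 CPM (1.51 ± 0.17, 1.1e-09), and the interaction with it did not pass (0.91). Khdrbs2, an RNA-binding splicing regulator, was at 256 and 232 against 128 and 127 CPM in Inh-CGE and at 244 to 279 CPM in Inh-MGE. Inh-Lamp5 was lower in D2 as well, at 163 and 212 against 57.1 and 74.9 CPM (-1.56 ± 0.19, 3.3e-09). Against both other labels 8 transcripts passed, namely Col5a2, Dpp10, Gm17171, Kcnj3, Nwd2, Yjefn3, Ell2 and Ptprm. Dpp10, an auxiliary subunit of A-type potassium channels, was at 890.3 and 742 against 1062 and 941 CPM in Inh-CGE and at 2179 and 1988 against 1556 and 1400.1 CPM in Inh-MGE. Col5a2, a collagen, was at 114 and 83.5 against 65.2 and 43.7 CPM in Inh-CGE and 5.38 and 11.98 against 21.6 and 21.0 CPM in Inh-MGE.

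For some genes the interaction went with low levels in Inh-MGE. Of the 20 transcripts with a higher ratio in Inh-CGE, 11 were called between strains in Inh-MGE and not in Inh-CGE. All 11 were lower in D2 in Inh-MGE, a direction that this way of choosing them nearly fixes. Of the 11, 6 were at least 2-fold higher in Inh-CGE than in Inh-MGE. Over all symbols at 20 CPM, 4.14% were so with no overlap of libraries. Adarb2 gave no strain call in Inh-CGE but was at 23.8 and 38.2 against 9.82 and 13.3 CPM in Inh-MGE, and Cadps2 was there at 39.3 and 24.2 against 13.5 and 12.6 CPM. Vip in Inh-MGE lay the other way, at 2.55 and 2.25 against 3.68 and 3.86 CPM. Whether Inh-CGE transcripts were counted in Inh-MGE nuclei was not tested. DESeq2 called 6 transcripts in this comparison, among them Ankfn1, Schip1, Dpp10, Cadps2 and Angpt1.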

How the data were processed

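snRNA-seq and snATAC-seq of 8 of 24 samples were used, and the 16 methylation samples were not analysed here. The authors deposited raw counts per gene symbol or peak, summed over the nuclei of each label and library. Per the labels and methods, these came from Cell Ranger 6.0.2 and Cell Ranger ATAC 2.0.0 with Seurat 4.0.5 on mm10, with variants inserted for D2, and the authors removed doublets in both assays with DoubletFinder before summing. Column numbers (2 and 3) differ from those of the labels, so columns were placed in a strain only. The p-values measure the spread between libraries.

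Counts were tested with edgeR 4.0.16 (quasi-likelihood, TMM, R 4.3.3, Benjamini-Hochberg) on transcripts counted in both strains and kept by filterByExpr, and on peaks with at least 10 counts over the 4 libraries. Interactions had the library as a block. DESeq2 1.42.0, the tool of the study, was an alternative. Positions came from GENCODE vM21. In simulated libraries with 200 changed features, each of at least 40 counts, edgeR recovered 44% of 2-fold and 78% of 4-fold interactions against Inh-MGE. Against Inh-Lamp5 it recovered 25% and 67%. Columns of other labels (56 in snRNA-seq, 48 in snATAC-seq) were used only pooled.

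Members and gene lists were chosen with earlier results of these data known. Named were list members, the 25 leading genes with the highest ratio to the next label, the 10 largest differences per direction between labels and between strains (the latter at 20 CPM with no overlap), 3 peaks per direction, and the 5 interactions of lowest p per direction. The 6 other leading genes, Tenm3, the genes with both promoter peak and transcript called, interactions called against both labels and the distal peaks were chosen after their values were seen. Results for some genes are not reported here.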

Additional observations from a re-analysis of the deposited data

Results flagged for a closer look

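The strain effect (log2 D2 over B6) differed between labels by an interaction term in edgeR for 36 transcripts between Inh-CGE and Inh-MGE and for 72 between Inh-CGE and Inh-Lamp5. Against Inh-MGE, the log2 difference of the strain effects, Inh-CGE minus Inh-MGE, was 3.45 for Ankfn1, 2.21 for Schip1, 2.17 for Yjefn3, 1.59 for Cadps2, 1.48 for Ell2, 1.44 for Adarb2, 1.16 for Cck, 0.79 for Dpp10, 0.74 for Ptprm, 0.61 for Col25a1 and 0.58 for Kcnj3. It was -2.55 for Angpt1, -2.08 for Col5a2, -1.80 for Gpc3, -1.16 for Nwd2, -1.04 for Il1rapl2, -0.96 for Epb41l4a, -0.89 for Khdrbs2 and -0.64 for Gm17171. Of these 19, 5 also passed with DESeq2. Groups of 2 libraries were too small for the check of single samples far from their group.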

How the results depend on the processing

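Without D2 library 2 or 3, edgeR called 0 Inh-CGE transcripts between strains (1778 and 1370 at an unadjusted p under 0.05), and over all leave-outs it called 0 to 944. Leave-outs gave 27 to 102 interactions against Inh-MGE (102 without B6 library 2, 55 without D2 library 2), 27 to 71 against Inh-Lamp5 (27 without B6 library 3) and 286 to 338 peaks. DESeq2 called 395 transcripts, 6 and 8 interactions (Inh-MGE, Inh-Lamp5) and 149 peaks. Testing everything with at least 1 count gave 484 transcripts, 96 interactions against Inh-MGE and 72 peaks. With no requirement of a count in both strains, 1914 transcripts passed, 1150 higher and 764 lower in D2. Without the library block, 13 and 26 interactions passed. A mean of 5 CPM gave 490 genes higher and 529 lower than in Inh-MGE, and the nuclei share was 4.75% among neurons. No named transcript, interaction or peak changed sign, but the balance of calls turned in 3 further settings. For D2 over B6, the library number as a block gave 263 higher peaks and 252 lower ones, and 40 counts or more gave 232 and 187, and interactions against Inh-Lamp5 were 31 higher and 40 lower without D2 library 2. The leading genes numbered 23 with TMM scaling and 42 at 5 CPM. Of 55 named strain transcripts, 42 passed with DESeq2 and 39 without B6 library 3.

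With the column's library number as a replicate block, 1175 transcripts and 515 peaks passed. Whether the numbers pair the samples cannot be told from the labels. Deviations of same-numbered libraries correlated at -0.0448 in snRNA-seq and 0.00269 in snATAC-seq. Each value is a single correlation that counting error can lower, so it does not settle the pairing. The exact permutation test of nuclei shares was not run, because 2 against 2 cannot go below p = 0.33. In simulated libraries of these depths edgeR recovered 23% of 2-fold peak differences and 25% of 2-fold interactions against Inh-Lamp5. Changes were placed only in features of at least 40 counts.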
